A study of Mus musculus with 8 samples.

Results

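Fibroblast growth factor (FGF) genes expressed by the mouse kidney itself were examined in bulk RNA-seq of kidney from diabetic mice given recombinant FGF4 (rFGF4) or vehicle. The 10 genes described here, Fgf1, Fgf2, Fgf7, Fgf9, Fgf10, Fgf12, Fgf13, Fgf18, Fgf21 and Fgf23, were taken by gene name from a table of 55401 genes that holds 22 FGF family genes. FGFs fall into local signals that bind heparan sulfate and act on receptor tyrosine kinases near the cells that release them, hormones that travel in blood and need a Klotho protein beside the receptor, and intracellular homologous factors that are not secreted and bind voltage-gated sodium channels. Receptor activation feeds the RAS-ERK cascade, which switches on its own inhibitors, the Sprouty and dual-specificity phosphatase genes, and the ETS factors Etv4 and Etv5. In the kidney, FGF7 and FGF10 are known as stromal signals to epithelium, FGF9 as a signal that keeps nephron progenitors in the embryo, and FGF23 as the hormone from bone that lowers phosphate uptake and vitamin D activation in the tubule.

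The rFGF4 group held 4 mice, numbered 1, 2, 3 and 5, and the vehicle group 4 mice, numbered 2, 3, 4 and 5, each with 1 kidney library. The labels name both groups as db/db, mice without a working leptin receptor that become obese and diabetic, whereas the text of the study describes the sequenced mice as made diabetic with streptozotocin (STZ), which destroys insulin-producing cells. Which model was used was not examined in the sequence data here. For both models the study describes male mice injected intraperitoneally with rFGF4 (1 mg per kg) on alternate days over 8 weeks, with phosphate-buffered saline as the vehicle. Treatment of db/db mice began at 12 weeks of age, and the ages given for STZ mice differ between places in the study's text. There was no group without diabetes, so the levels described here are those of diabetic kidney. rFGF4 is a truncated human protein that was injected, not a transcript, and endogenous Fgf4 was listed at 0 in all 8 libraries.

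Levels are given as FPKM, fragments scaled to transcript length and to the mapped total of a library, which allows genes to be compared per length. Counts were not used here, so the counting error of a value is unknown; steps between low values placed the depth of the libraries within 0.905 to 1.12 times that of vehicle mouse 2. Kidney markers were present throughout, with a summed level of 8 proximal tubule genes between 668 FPKM in rFGF4 mouse 1 and 2434 FPKM in vehicle mouse 4. rFGF4 mouse 1 and vehicle mouse 5 stood apart from the other 6 libraries, and the main results that rest on them are given with and without both. The sum of 7 macrophage markers was 1269 FPKM in rFGF4 mouse 1 and 1803 FPKM in vehicle mouse 5, against 46.8 to 458 FPKM in the rest, and the sum of 9 B cell and lymph node genes reached 22471 FPKM in vehicle mouse 5. In bulk RNA, fewer cells of a type and less RNA per cell cannot be told apart.

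Fgf1 dominated the FGF genes of the kidney. It made up 64.2% to 86.8% of the summed FPKM of the 22 family genes in a library, and its median of 32.7 FPKM was 11.4 times that of Fgf9, the next gene. The order of the medians was Fgf1, Fgf9, Fgf18, Fgf2, Fgf12, Fgf10, Fgf7, Fgf13, Fgf21 and Fgf23. Only between Fgf1 and Fgf9 did the ranges over the 8 libraries not overlap. Fgf9 exceeded Fgf18 in 6 of 8 libraries, Fgf18 exceeded Fgf2 in 5, and Fgf10 exceeded Fgf7 in 5, so the order of these neighbours is not fixed beyond the spread between mice. Fgf12 exceeded Fgf10 in all 8 libraries although their ranges overlapped. Of the other 12 family genes, 7 were listed at 0 in every library, and Fgf11, an intracellular homologous factor, reached 0.484 to 1.42 FPKM.

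**Figure D1:**
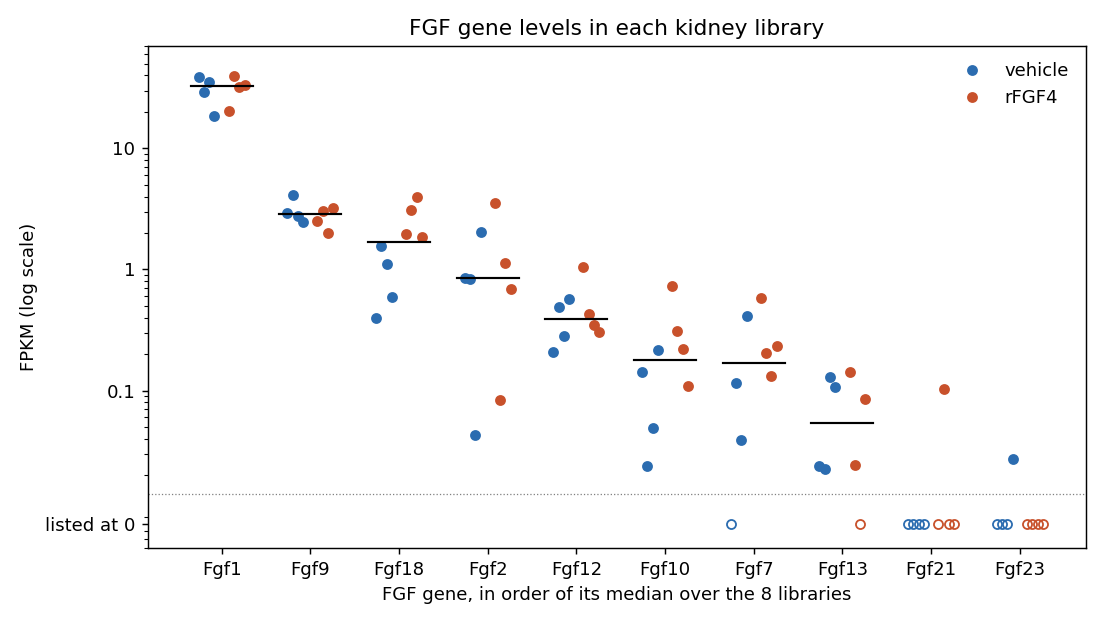
FPKM of the 10 FGF genes on a log scale, 1 point per library, with vehicle in blue and rFGF4 in red; black lines are medians over the 8 libraries, and open circles below the dotted line are libraries in which the gene was listed at 0. Fgf1 lay above 18 FPKM in every library, and Fgf18 was the gene whose groups were apart.

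The comparison of rFGF4 with vehicle asks whether injected FGF4 was accompanied by a change in the kidney's own FGF genes. Of the 10 genes, 4 reached 0.5 FPKM in at least 4 libraries and were tested with limma on log2(FPKM + 1) among 15150 genes. Fgf18 passed the study's threshold, at least 1.5-fold higher or lower at an unadjusted p under 0.05, and Fgf9, Fgf2 and Fgf1 did not. The count of 1 in 4 stands beside a background of 1.52% of all genes tested, or 231 genes, and 1.09% for genes higher in rFGF4. Of those 231 genes 165 were higher and 66 lower in rFGF4. With each library divided by its median ratio to the mean library, referred to below as scaling, the counts were 93 and 84. No gene reached an adjusted p under 0.05 in limma (0% of those tested), whereas 1 gene, not an FGF gene, did with no filter on low values and when vehicle mouse 2, 4 or 5 was left out. An unadjusted p under 0.05 was reached by 700 genes, 4.62% of those tested, where 5% would be reached with no difference in any gene. Fgf18 did not pass once all genes were taken into account.

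Fgf18, a local signal of the FGF8 subfamily known for its part in lung and skeletal growth, was higher in rFGF4 kidneys. Its FPKM was 1.94, 3.10, 3.93 and 1.85 in rFGF4 mice 1, 2, 3 and 5. In vehicle mice 2, 3, 4 and 5 it was 0.398, 1.55, 1.11 and 0.591. Every rFGF4 value lay above every vehicle value, with rFGF4 mouse 5 and vehicle mouse 3 the closest, a pattern shared by 2.66% of all genes tested in this direction and by 3.33% in either direction. The group means were 2.71 ± 0.996 FPKM in rFGF4 (SD, n = 4) and 0.911 ± 0.520 FPKM in vehicle (SD, n = 4), a ratio of 2.97. On the log2(FPKM + 1) scale the difference was 0.96, with a 95% interval of 0.38 to 1.53. The limma p was 0.00487 and the adjusted p was 0.918. By a two-sided exact permutation test p was 0.0286, the smallest value that 4 mice against 4 can give. Fgf18 ranked 55th of all genes by limma p. After scaling the groups overlapped, with 1.53 scaled FPKM in rFGF4 mouse 1 below 1.64 in vehicle mouse 3. The scaled difference was 0.88, with a limma p of 0.0125 and an exact permutation p of 0.0571. Without rFGF4 mouse 1 and vehicle mouse 5 the difference was 0.98, and the groups remained apart. Its exact permutation p was then 0.1, the lowest value possible for 3 against 3, and the share of all genes so apart was not counted.

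**Figure D2:**
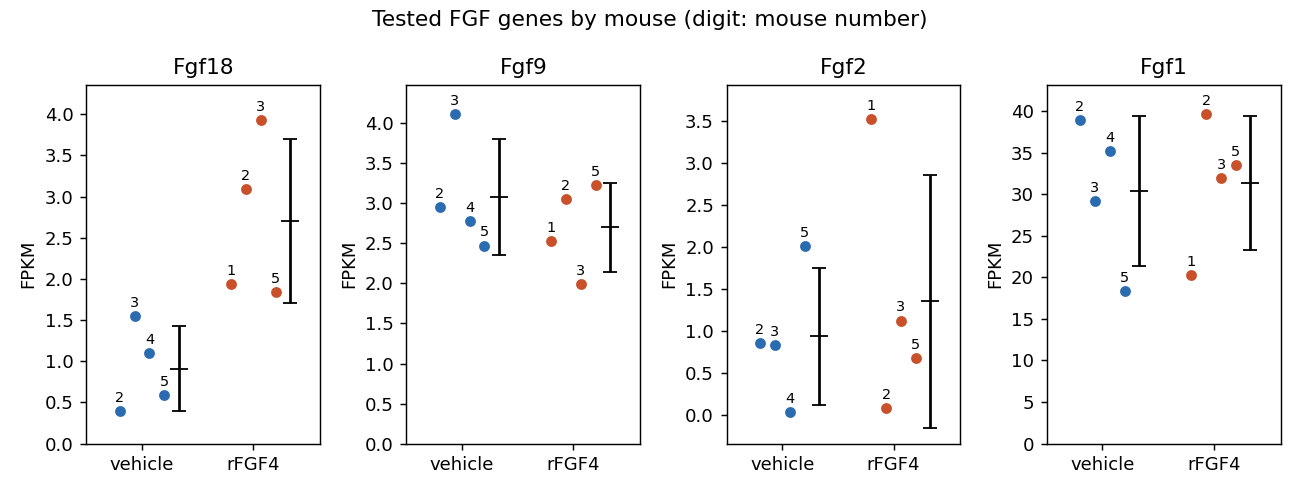
FPKM of the 4 tested FGF genes by mouse in the vehicle (blue) and rFGF4 (red) groups, with the mouse number above each point and the mean and SD of each group as a bar; each panel has its own axis. Fgf18 is the panel without overlap, and the SD of Fgf2 in rFGF4 is larger than its mean.

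Fgf18 lies on the minus strand of chromosome 11, at 33117430 to 33147400 of GRCm38 in the GENCODE M21 annotation, and its exons overlap those of no other annotated gene. To show what sequence precedes the gene that differed, the 250 bases before its start at chr11:33147401-33147650 (minus strand, RefSeq on GRCm38.p6) are printed beside those of Fgf7 at chr2:126034408-126034657 (plus strand) and of the hormone gene Fgf21 at chr7:45615491-45615740 (minus strand), which were both low. Capitals mark the GC box GGGCGG and the TATA box TATAAA on either strand.
Fgf18: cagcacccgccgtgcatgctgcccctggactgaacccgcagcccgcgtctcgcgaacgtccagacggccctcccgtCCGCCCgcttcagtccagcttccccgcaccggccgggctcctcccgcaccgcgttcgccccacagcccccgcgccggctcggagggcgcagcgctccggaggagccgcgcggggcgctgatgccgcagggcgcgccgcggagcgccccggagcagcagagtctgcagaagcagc
Fgf7: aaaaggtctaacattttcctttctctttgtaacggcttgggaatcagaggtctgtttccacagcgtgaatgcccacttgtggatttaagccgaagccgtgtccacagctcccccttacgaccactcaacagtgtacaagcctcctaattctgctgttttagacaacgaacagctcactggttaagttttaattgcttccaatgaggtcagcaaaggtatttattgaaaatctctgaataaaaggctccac
Fgf21: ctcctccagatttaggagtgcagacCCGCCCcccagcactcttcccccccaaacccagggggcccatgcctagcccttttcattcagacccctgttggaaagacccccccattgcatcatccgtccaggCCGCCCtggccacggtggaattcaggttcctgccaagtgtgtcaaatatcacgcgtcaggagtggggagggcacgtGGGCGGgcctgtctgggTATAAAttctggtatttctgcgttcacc
The Fgf18 window was 77.2% G and C, higher than 97.4% of the 32851 promoter windows in the RefSeq table, and held 37 CG dinucleotides against a median of 6. It held 1 GC box, a motif found in 32.7% of all windows, and no TATA box. A high share of G and C was not particular to Fgf18: windows at 2 of the starts of Fgf13, which was lower still, had 74.8% and 74.4%, and that of Fgf9, at a higher level, had 44.8%. The Fgf7 window was 43.6% G and C and held neither motif. Fgf21 had 3 GC boxes and 1 TATA box, the latter found in 12.4% of all windows. Also searched on both strands were the ETS motif CCGGAA (12% of all windows), the AP-1 motif TGANTCA (6.75%) and the cyclic AMP motif TGACGTCA (1.55%), with no match in the 3 windows. A GC box holds no A or T and so cannot overlap a match to TATAAA. These matches describe letters only, and no binding was measured.

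Fgf9, a local signal of the FGF9 subfamily, was steady across mice. Its FPKM was 2.53, 3.06, 1.99 and 3.22 in rFGF4 mice 1, 2, 3 and 5 and 2.95, 4.12, 2.78 and 2.47 in vehicle mice 2, 3, 4 and 5. The groups overlapped, and the highest library was only 2.07 times the lowest. The difference on the log2(FPKM + 1) scale was -0.14, with a 95% interval of -0.53 to 0.25 and an exact permutation p of 0.457. The interval was -0.67 to 0.20 after scaling.

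Fgf1, the most abundant FGF gene here, encodes a signal that lacks a classical secretion sequence and binds all FGF receptors. Its FPKM was 20.3, 39.6, 31.9 and 33.5 in rFGF4 mice 1, 2, 3 and 5. In vehicle mice 2, 3, 4 and 5 it was 38.9, 29.2, 35.2 and 18.3. The lowest library of each group was the one with high macrophage markers, rFGF4 mouse 1 and vehicle mouse 5, and the remaining 6 lay between 29.2 and 39.6 FPKM. These 2 libraries also had the 2 lowest proximal tubule sums, 668 and 1362 FPKM against 1541 to 2434 FPKM in the others, and the part of cell makeup in the level of Fgf1 was not tested. The group difference was 0.056 on the log2(FPKM + 1) scale, with a 95% interval of -0.57 to 0.68 and an exact permutation p of 0.771. It was -0.069 after scaling, -0.066 without rFGF4 mouse 2, -0.16 without vehicle mouse 5 and 0.028 without rFGF4 mouse 1 and vehicle mouse 5, so it has no settled direction.

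Fgf2, the closest relative of Fgf1 and a signal stored on heparan sulfate in the matrix, varied most among the tested genes. Its FPKM was 3.53, 0.0834, 1.13 and 0.685 in rFGF4 mice 1, 2, 3 and 5. In vehicle mice 2, 3, 4 and 5 it was 0.858, 0.834, 0.0427 and 2.02. Both groups held 1 library near 0 and 1 well above the rest, and the highest value was 82.6 times the lowest. The log2(FPKM + 1) difference was 0.18, with a 95% interval of -0.88 to 1.24 and an exact permutation p of 0.743, and it turned to -0.20 without rFGF4 mouse 1 and -0.087 without vehicle mouse 4. It was 0.043 without rFGF4 mouse 1 and vehicle mouse 5. Fgf2 lies on the plus strand of chromosome 3 at 37348346 to 37410108, and 640 bases of its exons overlap exons of Nudt6 on the opposite strand and 255 bases those of Gm43439 on the same strand. Since no source used here says that strand was kept, reads in the stretch shared with Nudt6 cannot be told apart, nor can those shared with Gm43439 by strand. Nudt6 itself was at 3.46 FPKM in rFGF4 mouse 2 and 4.65 FPKM in vehicle mouse 4, the libraries in which Fgf2 was near 0. Where Fgf2 was highest, in rFGF4 mouse 1 and vehicle mouse 5, Nudt6 was lowest of each group, at 1.70 and 2.80 FPKM. Gm43439 was at 0.176 FPKM in rFGF4 mouse 2 and 0.0119 FPKM in rFGF4 mouse 1, and was listed at 0 in the other 6 libraries.

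**Figure D3:**
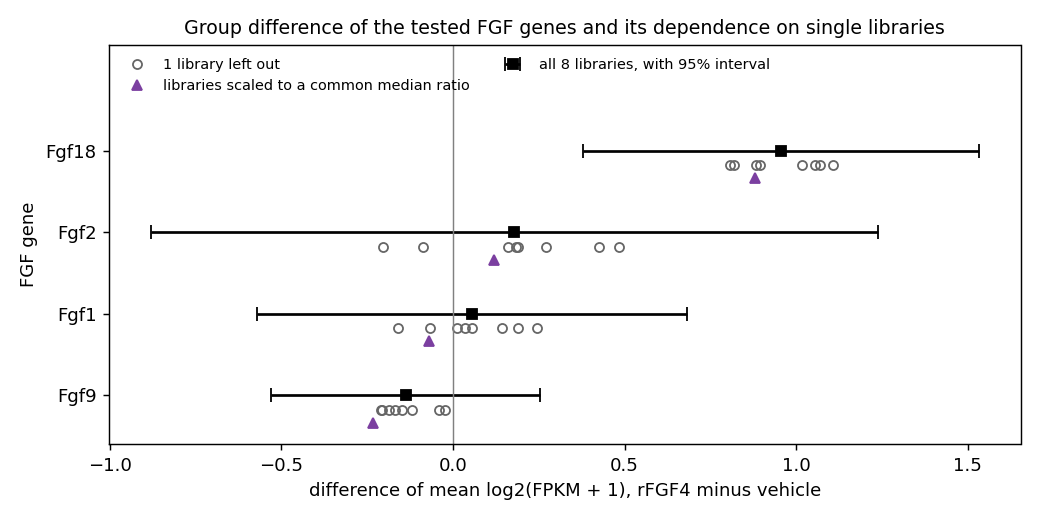
Difference of mean log2(FPKM + 1), rFGF4 minus vehicle, for the 4 tested FGF genes: squares with 95% intervals for all 8 libraries, open circles with 1 library left out, triangles after scaling. Fgf18 stayed between 0.81 and 1.11 with any 1 library left out, whereas Fgf2 and Fgf1 crossed 0.

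Fgf10 and Fgf7, the mesenchymal signals of the FGF7 subfamily that act on the epithelial form of FGFR2, were low in all libraries. Fgf10 was at 0.729, 0.312, 0.222 and 0.109 FPKM in rFGF4 mice 1, 2, 3 and 5. In vehicle mice 2, 3, 4 and 5 it was at 0.142, 0.0238, 0.0488 and 0.216 FPKM. Vehicle mice 2 and 5 lay above rFGF4 mouse 5, so the groups overlapped. The difference of mean log2(FPKM + 1) was 0.26, with an exact permutation p of 0.114. It was 0.18 without rFGF4 mouse 1 and vehicle mouse 5. Fgf10 exons share 123 bases with the antisense gene Gm16263, so its low values are uncertain. Gm16263 was at 0.172 FPKM in rFGF4 mouse 1 and 0.124 FPKM in rFGF4 mouse 3, and was listed at 0 elsewhere. The group difference of Fgf10 is thus uncertain as well.

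Fgf7, also called keratinocyte growth factor, was at 0.576, 0.205, 0.132 and 0.233 FPKM in rFGF4 mice 1, 2, 3 and 5. In vehicle mice 3, 4 and 5 it was at 0.117, 0.0390 and 0.414 FPKM, and in vehicle mouse 2 it was listed at 0. Vehicle mouse 5 was the only vehicle library inside the rFGF4 range. The log2(FPKM + 1) difference was 0.17, with an exact permutation p of 0.314. It was 0.18 without rFGF4 mouse 1 and vehicle mouse 5, where the groups of 3 did not overlap and the exact permutation p was 0.1, the smallest possible. Leaving out vehicle mouse 5 removed the overlap, and the share of all genes apart in these 6 libraries was not counted.

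Among the intracellular homologous factors, Fgf12 was at 1.05, 0.430, 0.349 and 0.303 FPKM in rFGF4 mice 1, 2, 3 and 5. It was at 0.207, 0.486, 0.283 and 0.572 FPKM in vehicle mice 2, 3, 4 and 5. Apart from mouse 1, the rFGF4 values lay inside the vehicle range. The difference of 0.13 on the log2(FPKM + 1) scale had an exact permutation p of 0.571, and was 0.043 without rFGF4 mouse 1 and vehicle mouse 5. Fgf13, X-linked and best known in neurons, was at most 0.143 FPKM, reached 0.1 FPKM in 3 libraries and was listed at 0 in 1. Its groups overlapped, with a difference of -0.012, and of -0.030 without rFGF4 mouse 1 and vehicle mouse 5.

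The hormone genes were listed at 0 in most libraries. Fgf21, a liver hormone of fasting and stress, was listed above 0 only in rFGF4 mouse 2, at 0.103 FPKM. Fgf23 was listed above 0 only in vehicle mouse 5, at 0.0271 FPKM. No comparison of groups can be made from 1 library each, and both exact permutation tests gave a p of 1. Because a level of 0 here can also be a failed estimate, it says only that the gene was so listed.

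Of the 8 FGF genes listed above 0 in more than 1 library, 4 had the highest value of the rFGF4 group in mouse 1 and the highest value of the vehicle group in mouse 5. These were Fgf2, Fgf7, Fgf10 and Fgf12. The share of all genes with this pattern was not counted, so 4 of 8 is not read as particular to FGF genes. These 2 libraries also had the most genes at 0.5 FPKM or more, 16157 and 16226 against 14253 to 15240 in the rest. The same libraries held the highest sums of 9 stroma and fibroblast markers within their groups, 134 and 147 FPKM against 14.2 to 64.5 FPKM in the other 6 libraries, with all 9 markers listed above 0 in at least 1 library. The stroma sums ran from 22.8 to 134 FPKM in rFGF4 and from 14.2 to 147 FPKM in vehicle. Macrophage sums were also highest in these libraries of each group, and the part of these cells in the FGF levels was not tested. Fgf18 did not share this pattern, since its highest libraries were rFGF4 mouse 3 and vehicle mouse 3.

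**Figure D4:**
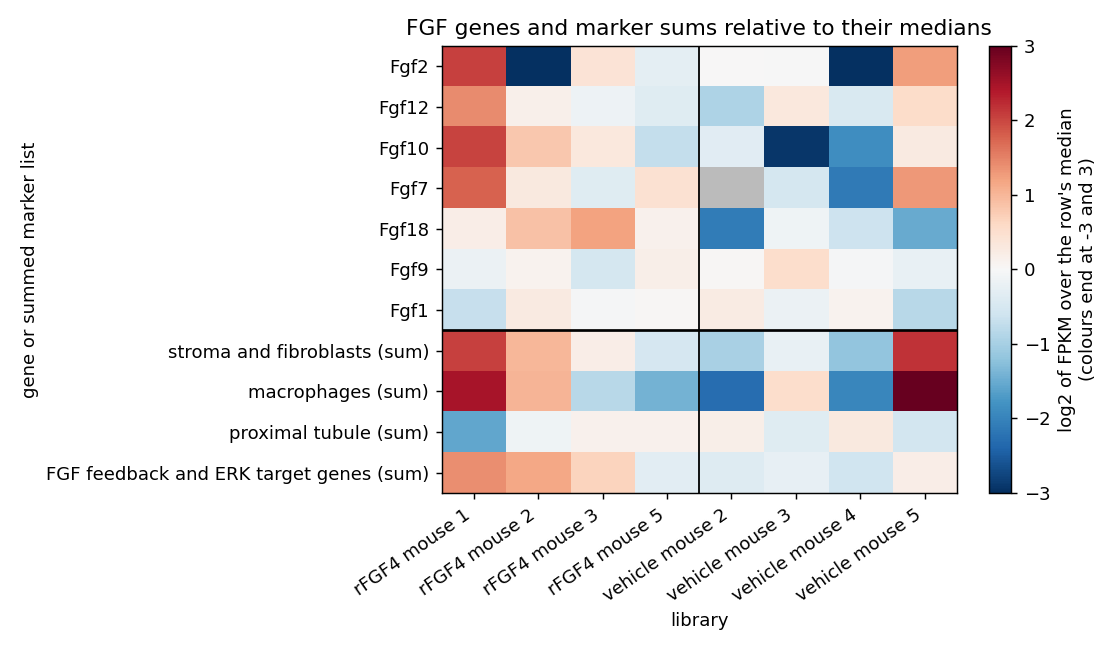
Log2 of the FPKM of 7 FGF genes and of 4 summed gene lists over the median of the row, by library, with red above and blue below the median and grey where the gene was listed at 0. rFGF4 mouse 1 and vehicle mouse 5 are red for Fgf2, Fgf12, Fgf10 and Fgf7 and for the stroma and macrophage sums, and blue for Fgf1 and the proximal tubule sum.

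No receptor for these ligands changed past the threshold. Of 7 receptor and co-receptor genes 6 were tested, with a median difference of 0.063 on the log2(FPKM + 1) scale beside 0.086 over all genes tested. Fgfr1, the main mesenchymal receptor, was at 9.33, 6.95, 5.69 and 4.60 FPKM in rFGF4 mice 1, 2, 3 and 5 and at 4.27, 4.37, 4.15 and 5.67 FPKM in vehicle mice 2, 3, 4 and 5. Its groups overlapped through rFGF4 mouse 5 and vehicle mouse 5, and the difference of 0.42 had a limma p of 0.0691. Fgfr2, whose epithelial form binds FGF7 and FGF10, was at 0.968 to 1.25 FPKM in rFGF4 and 1.27 to 1.81 FPKM in vehicle, without overlap. Its difference of -0.23 had a limma p of 0.0814.

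Fgfr3 and Fgfr4 differed by 0.12 and 0.0031 on the log2(FPKM + 1) scale, and the kinase-less receptor Fgfrl1 by 0.26. The co-receptor of FGF23, Klotho (Kl), was at 8.90 FPKM in rFGF4 mouse 1 and at 30.8 to 55.6 FPKM in the other 7 libraries, and its difference of -0.57 had a limma p of 0.288. It was -0.20 without rFGF4 mouse 1 and vehicle mouse 5, and -0.041 without rFGF4 mouse 1 alone. Beta-Klotho (Klb), the co-receptor of FGF21, was listed at 0 in 6 libraries and was at most 0.0587 FPKM.

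Of the 13 tested genes that FGF signaling is known to switch on, 6 rose past the threshold in rFGF4, beside 1.09% of all genes tested. All 13 feedback and ERK target genes had positive differences, as did 67.1% of all genes tested. After scaling it was 12 of the 13. Their median difference was 0.77, and those that rose were Dusp4, Dusp5 and Dusp6, phosphatases that act on ERK or its relatives, the ETS factor Etv5, and the Sprouty inhibitors Spry2 and Spry4. None fell. Spred2, another RAS-ERK inhibitor, had a limma p of 0.0306 with a difference of 0.57, just short of the fold change required. After scaling 5 passed, beside 0.614% of all genes. Without rFGF4 mouse 1 and vehicle mouse 5, a choice made after their markers were seen, 3 passed, beside 1.33% of all genes, and the median difference was 0.59. Dusp5, Spry4 and Spry2 no longer passed, with limma p values of 0.058, 0.0613 and 0.0569. Their differences were then 1.28, 0.79 and 0.59, against 1.25, 0.81 and 0.60 with all 8 libraries. The summed level of the list was highest of its group in those libraries, at 133 FPKM in rFGF4 mouse 1 and 58.2 FPKM in vehicle mouse 5, and the part of their cell makeup was not tested. Markers of other cells also differed in direction between the groups. Each of the 5 red cell genes had a negative difference (median difference -1.97, summed level 120 to 2657 FPKM against 1139 to 4325 FPKM in vehicle), with none past the threshold. Each of the 7 podocyte genes had a positive one (median difference 0.30, summed level 70.3 to 113 FPKM against 50.0 to 94.1 FPKM), of which 1, the podocyte actin-binding gene Synpo, passed. The 8 tested stroma and 7 macrophage genes also had positive differences, with medians of 0.44 and 0.44 and none past the threshold. Without rFGF4 mouse 1 and vehicle mouse 5 the medians were 0.75 and 0.80, and 3 stroma genes, Pdgfrb, Dcn and Lum, passed. Of 7 liver genes 6 had positive differences (median 0.65, summed level 130 to 220 FPKM against 73.6 to 141 FPKM), and 1, Serpina1c, passed, though not after scaling. Without rFGF4 mouse 1 and vehicle mouse 5 Serpina1c differed by 0.57 and did not pass, whereas Ahsg did, at 0.62. All 8 collecting duct and 5 distal convoluted tubule genes had negative differences (medians -0.24 and -0.46, and -0.28 and -0.16 without those 2 libraries), with none past the threshold in either fit. Fabp4, the single adipocyte gene tested, was lower past the threshold, by -0.73. No marker of these lists was at 0 throughout, and their part in the rise of the feedback genes and of Fgf18 was not tested.

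Etv5 was at 7.90, 7.39, 7.85 and 3.88 FPKM in rFGF4 mice 1, 2, 3 and 5 and at 3.11, 3.27, 3.05 and 3.28 FPKM in vehicle mice 2, 3, 4 and 5. Dusp4 was at 6.06, 6.14, 7.12 and 1.85 FPKM in rFGF4 mice 1, 2, 3 and 5 and at 1.83, 0.999, 1.47 and 1.80 FPKM in vehicle mice 2, 3, 4 and 5. In both genes rFGF4 mouse 5 lay just above the vehicle mice, while the other 3 rFGF4 mice were well above. Their differences on the log2(FPKM + 1) scale were 0.85 and 1.22, with limma p values of 0.0028 and 0.00534 and an adjusted p of 0.918 for each. Dusp6, at 26.6, 32.1, 27.0 and 9.04 FPKM in rFGF4 mice 1, 2, 3 and 5 and 6.70 to 10.1 FPKM in vehicle, overlapped between groups through rFGF4 mouse 5. Fgf18 was likewise lowest of its group in rFGF4 mouse 5, at 1.85 FPKM, but close to rFGF4 mouse 1 at 1.94 FPKM, where Dusp6 and Etv5 were high.

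**Figure D5:**
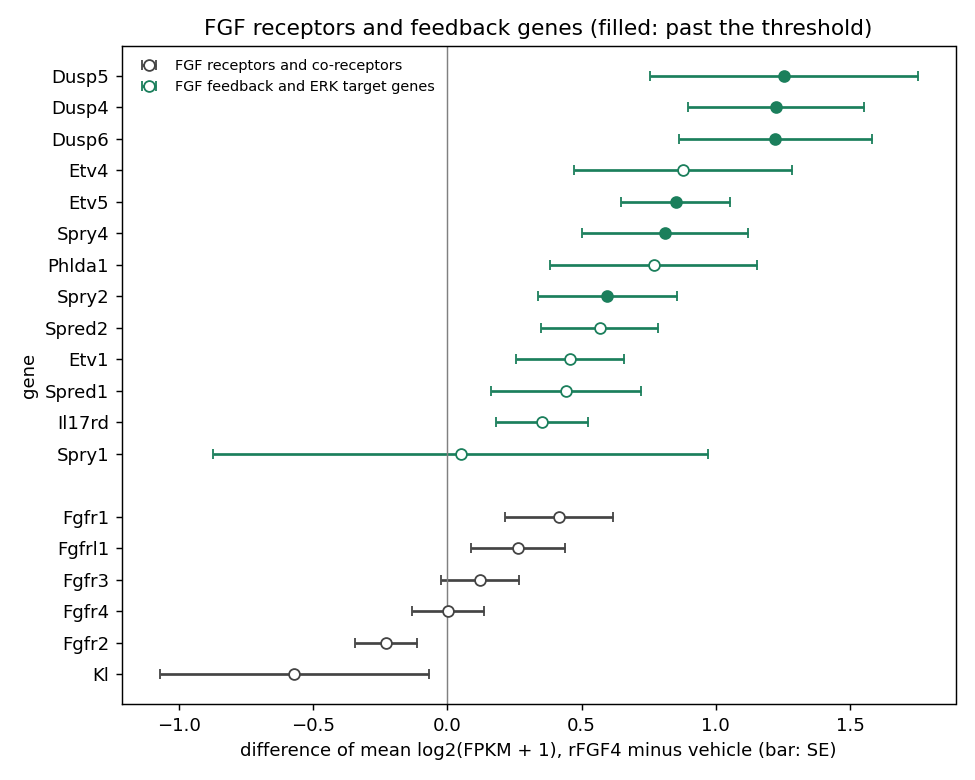
Difference of mean log2(FPKM + 1), rFGF4 minus vehicle, with its SE, for the tested FGF receptor genes (grey) and feedback genes (green); filled points passed the threshold. The 6 receptor genes lie on both sides of 0 and the 13 feedback genes lie above it.

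Genes that carry, release or modify FGFs mostly did not pass. Of 18 tested carrier and heparan sulfate genes 1 passed the threshold, upward, beside 1.09% of all genes tested. This gene was Fgfbp1, a secreted protein that frees FGFs from the matrix. It was at 11.3, 9.34, 6.78 and 1.70 FPKM in rFGF4 mice 1, 2, 3 and 5 and at 3.20, 1.03, 2.13 and 1.55 FPKM in vehicle mice 2, 3, 4 and 5. The groups overlapped through rFGF4 mouse 5, and the difference was 1.32 on the log2(FPKM + 1) scale with a limma p of 0.0213. The list no longer held a gene past the threshold without rFGF4 mouse 1 and vehicle mouse 5, where Fgfbp1 differed by 1.01 with a limma p of 0.107. Hs6st1, which adds sulfate to heparan chains, had a limma p of 0.0285 with a difference of 0.37.

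The genes that FGF23 is known to regulate were read in the same way, since Fgf23 itself was all but unlisted. Cyp24a1, which breaks down active vitamin D, was at 41.8, 227, 345 and 23.7 FPKM in rFGF4 mice 1, 2, 3 and 5 and at 5.18, 3.82, 5.29 and 15.4 FPKM in vehicle mice 2, 3, 4 and 5. It rose without overlap, by 3.68 on the log2(FPKM + 1) scale with a limma p of 0.00237. None of the other 4 genes of that list passed, and 1.09% of all genes tested were higher past the threshold. Cyp27b1, which makes active vitamin D, differed by -1.23 and the phosphate carriers Slc34a1 and Slc34a3 by -0.49 and -0.57. Without rFGF4 mouse 1 and vehicle mouse 5 the carriers differed by -0.046 and 0.071, and without rFGF4 mouse 1 alone by 0.065 and 0.13, so their negative values rest on that library. Without both libraries Cyp24a1 and the vitamin D receptor gene Vdr were higher and Cyp27b1 lower past the threshold, by 4.45, 0.96 and -1.61. In that fit 1.33% of all genes were higher past the threshold, and 71 of 15150 were lower.

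For Fgf21, known inducers were expressed although the gene was not listed in 7 libraries. Of 12 PPARA target genes 2 rose past the threshold, Ppara itself and Pdk4, which restrains glucose oxidation, beside 1.09% of all genes tested, with differences of 1.26 and 1.28 and limma p values of 0.022 and 0.0232. Ppara was at 3.27 to 15.6 FPKM in rFGF4 and 0.991 to 4.63 FPKM in vehicle. Pdk4 was at 10.8 to 30.8 FPKM in rFGF4 and 3.13 to 15.7 FPKM in vehicle, so both genes overlapped between groups. After scaling Ppara no longer passed, with a difference of 1.16 and a limma p of 0.051. Without rFGF4 mouse 1 and vehicle mouse 5 Pdk4 no longer passed, with a difference of 1.08 and a limma p of 0.109. Of 9 tested genes of the integrated stress response none passed, and Sesn2, a stress-induced regulator of mTORC1, had a limma p of 0.04 with a difference of 0.47.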

How the data were processed

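Kidney RNA with an integrity number above the study's minimum was selected for poly(A), sequenced in pairs, and quantified per library by the authors. The submitters' processing notes name HISAT2 2.0, Bowtie 0.12.2, StringTie 1.3.0 and the build mm8, without roles. As deposited by the authors, values are FPKM per gene, with 0.0001 standing for 0. The authors' own fold changes, their log2 values and p-values, also deposited, were not used. Of its gene identifiers 99.5% occur in GENCODE M21 on GRCm38, which gave the positions, and promoters of 9 of the 10 genes came from RefSeq on GRCm38.p6.

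The 10 genes and the gene lists were chosen with earlier results of these data known. Genes at 0.5 FPKM or more in at least 4 libraries were tested with limma 3.58.1 in R 4.3.3 on log2(FPKM + 1), which understates changes of low genes, letting the prior variance follow the mean level, and adjusted by Benjamini-Hochberg over all genes; the fit was tested on simulated data. Single genes were compared by two-sided exact permutation over all 8 libraries. All 10 FGF genes are named, and of the pathway lists the receptors and genes with an unadjusted p under 0.05 or groups without overlap. Others (Fgf11, Cyp27b1, Vdr, Slc34a1, Slc34a3, Synpo, Pdgfrb, Dcn, Lum, Serpina1c, Ahsg, Fabp4 and Nudt6) were named after their values were seen. The mouse numbers are the numbers in the sample titles, which do not call them mice. Nothing else in the labels says that the samples of a group are separate animals. The p-values measure the spread between these samples. Alternatives were another pseudocount, other filters, scaling by the median ratio, library weights, no trend, a replicate block and leaving out each library. The list of sodium channel partners is not reported here. A comparison of the proteins was not made.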

Additional observations from a re-analysis of the deposited data

Results flagged for a closer look

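Of 18 groups of 4 libraries in which an FGF gene varied, 2 held a library whose gap to the others, as a share of the whole range, was over Dixon's 95% limit; chance gives about 5% of such groups. Fgf21 was listed above 0 in rFGF4 mouse 2 alone, at 0.103 FPKM, a share of 1. Fgf23 was listed above 0 in vehicle mouse 5 alone, at 0.0271 FPKM, also a share of 1. Both follow from a single value above 0.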

How the results depend on the processing

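Fgf18 passed the study's threshold in every alternative limma fit at a fold change of 1.5, with differences of 0.81 to 1.11 when 1 library was left out, 1.56 with a pseudocount of 0.1 and 0.88 after scaling. By exact permutation the scaled difference of 0.88 no longer passed, so that 0 of the 10 genes passed there. With 1 library left out the smallest permutation p is 0.0571, so no gene could pass. The limma difference of Fgf1 reversed to -0.069 after scaling, and with 1 library left out ranged from -0.16 to 0.24; that of Fgf2 ranged from -0.20 to 0.48. The number of genes past the threshold, 231, became 348 with a pseudocount of 0.1, 490 with library weights and 54 at a fold change of at least 2, which Fgf18, at 0.96 on the log2 scale, did not reach. It ranged from 187 to 575 with 1 library left out, with 575 without rFGF4 mouse 5 and 432 without vehicle mouse 5, and was 273 without rFGF4 mouse 1 and vehicle mouse 5, an alternative added after seeing the data. In the main fit the mouse numbers were not taken as pairs. Deviations of same-numbered libraries from their group means correlated at -0.229, -0.155 and -0.393. Without the same values for differently numbered libraries, these do not decide whether the numbers pair the samples. A replicate block over the 6 libraries of mice 2, 3 and 5 gave 263 genes and an Fgf2 difference of -0.47; the same 6 libraries without the block, also added later, gave 255 genes and the same Fgf2 difference of -0.47. The causes were not tested.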
